A study of Mus musculus with 56 samples.

Results

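Abcc5, Cav1, C2cd3, Zfp628 and Krtap19-4 are 5 genes that were chosen by a fall of at least 1 of their probes over the chrysene doses in the lungs of exposed mice. They have 11 probes among the 55681 probes on the array, and they are 5 of the 20018 genes that could be named. All 11 probes were bright enough to be tested in lung, 8 in liver and 9 in forestomach. The fall in lung is what chose these genes, so their lung values are given below as a description, with no test. Changes with dose in liver and forestomach were not used in the choice and were tested. Levels of the falling probes in lung rest on the same lung values, so their distance from the other tissues is also a description.

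The animals were male MutaTMMouse of about 14 weeks, a transgenic strain in which mutations of a lacZ reporter can be scored, so controls and exposed mice shared the transgene. Control mice (D0) received olive oil alone by gavage on 28 days, and exposed mice received the same vehicle with chrysene, a polycyclic aromatic hydrocarbon, in daily doses of 17.5 mg (D1), 50 mg (D2) or 150 mg (D3) for each kg of body weight. Tissues were collected 72 hours after the last dose. Lung RNA came from 5 D0, 5 D1, 3 D2 and 5 D3 mice, and liver and forestomach RNA from 5, 5, 4 and 5 mice, with 1 array per mouse and tissue and 56 arrays in all. Each array held the tissue RNA labelled with Cy5 and a Universal Mouse Reference RNA, pooled from 11 cell lines, labelled with Cy3, and dyes were not swapped. A value is the log2 ratio of Cy5 over Cy3, so that 0 means equal signal in tissue and reference. RNA was taken from sections of whole tissue, in which fewer cells of a type and less RNA per cell cannot be told apart.

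The 5 genes belong to no common pathway. Cav1 encodes caveolin-1, the coat protein of caveolae, which are flask-shaped pits of the plasma membrane that are abundant in the endothelium and the alveolar type 1 cells of lung. Abcc5 encodes a transporter of the ABCC (multidrug resistance protein) family that exports organic anions and cyclic nucleotides from cells. C2cd3 encodes a centriolar protein needed for the assembly of cilia. Zfp628 encodes a zinc finger protein of the nucleus. Krtap19-4 belongs to the keratin-associated proteins, which cross-link keratin filaments in the hair shaft. Chrysene is a ligand of the aryl hydrocarbon receptor (AhR), which binds DNA at a motif with the core GCGTG, and the 5 genes are not among the receptor's standard reporter genes.

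In lung, array position went with dose on most arrays, and tissue content varied among the D3 lungs. The arrays of a tissue lay on 3 slides in columns numbered 1 to 4, and D0, D1, D2 and D3 lay in columns 1, 2, 3 and 4, respectively, on 16 of 18 lung arrays and on 17 of 19 arrays each in liver and forestomach. In lung the exceptions were D2 mouse 12, which lay in column 4, and D3 mouse 16, which lay in column 3. Lung defining markers were present: 6 of 6 alveolar type 2 markers, 7 of 7 endothelial markers and 6 of the 6 alveolar type 1 markers that could be named were above background on every lung array. The lungs of D3 mice 17 and 19 stood apart, with skeletal muscle markers 6.03 and 6.21 above the D0 mean on the log2 scale and keratinocyte markers 4.57 and 5.02 above it. The other 3 D3 lungs lay between -0.03 and 0.15 for skeletal muscle and between -0.02 and 0.12 for keratinocyte markers. The share of probes with Cy5 signal above background was 47.6 to 55.2% in lung, 33.2 to 45.2% in liver and 18.1 to 50.2% in forestomach.

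In lung, Cav1, measured by a single probe (A_55_P2126662, transcript NM_007616), fell with dose from a level well above the reference. Its log2 ratio was 2.64, 2.37, 1.93, 2.40 and 1.89 in D0 mice 1 to 5, and 2.15, 1.98, 2.11, 1.90 and 2.28 in D1 mice 6 to 10. It was 1.87, 2.02 and 1.69 in D2 mice 12, 13 and 15, and 1.82, 1.16, 1.57, 1.08 and 1.83 in D3 mice 16 to 20. All D3 lungs lay below all D0 lungs, but only by the gap between 1.83 and 1.89, and mice 17 and 19 were the lowest by far. The group means were 2.25 ± 0.32 (SD, n = 5), 2.08 ± 0.15 (n = 5), 1.86 ± 0.17 (n = 3) and 1.49 ± 0.36 (n = 5). The fitted change from D0 to D3 along a line over the 4 dose groups was -0.75 (SE 0.15), a 1.69-fold lower ratio.

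Abcc5 fell by the most of the 5 genes in its probe A_55_P2073935 (transcript NM_013790). The D0 lungs read 0.48, 0.40, 0.02, 0.50 and 0.52, and the D1 lungs 0.46, 0.26, 0.30, 0.15 and 0.04. The D2 lungs read -0.20, -0.18 and 0.04, and the D3 lungs 0.07, -0.58, -0.50, -1.27 and -0.18. D0 mouse 3 lay far below the other D0 lungs, and D3 mouse 16 lay above it, so that 4 of the 5 D3 lungs were below all D0 lungs. Mouse 19 at -1.27 was the lowest of all lungs for this probe. The means were 0.39 ± 0.21, 0.24 ± 0.16, -0.11 ± 0.14 and -0.49 ± 0.51 (SD, n = 5, 5, 3 and 5), and the fitted change was -0.90 (SE 0.17), or 1.86-fold.

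C2cd3 fell in its probe A_55_P1985259 (transcript NM_001017985). Its log2 ratio was 1.06, 0.71, 0.59, 1.02 and 0.74 in the D0 lungs and 0.65, 0.61, 0.28, 0.44 and 0.14 in the D1 lungs. It was -0.04, 0.55 and 0.45 in the D2 lungs and 0.56, 0.01, -0.03, -0.44 and 0.00 in the D3 lungs. The low D2 lung was mouse 12 and the high D3 lung was mouse 16, which are the animals whose arrays lay outside the column of their dose. The means were 0.82 ± 0.20, 0.42 ± 0.22, 0.32 ± 0.31 and 0.02 ± 0.35 (SD), and the fitted change was -0.76 (SE 0.15), or 1.69-fold. Much of the step was already present at the lowest dose, where the mean lay 0.40 below D0.

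Zfp628 fell in its probe A_55_P2127174 (transcript NM_170759). The D0 lungs read 2.04, 1.74, 1.5, 2.03 and 1.81, the D1 lungs 1.98, 1.78, 1.32, 1.65 and 1.41, and the D2 lungs 1.2, 1.54 and 1.72. The D3 lungs read 1.44, 1.06, 1.11, 0.89 and 1.2, all below the D0 lungs. The means were 1.82 ± 0.23, 1.63 ± 0.27, 1.49 ± 0.26 and 1.14 ± 0.20 (SD), with a fitted change of -0.67 (SE 0.13), or 1.59-fold. Its Cy5 signal was extremely bright, from 58187 to 215713 units with a median of 146225, which is at the percentile 99.9 of probes, and it was saturated on 0 of 18 lung arrays.

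Krtap19-4 (probe A_55_P2151209, transcript NM_130873) showed the largest step at the lowest dose. It read 0.56, 0.47, 0.29, 0.78 and 0.49 in the D0 lungs and 0.41, 0.21, -0.18, 0.05 and -0.15 in the D1 lungs. The D2 lungs read -0.17, -0.02 and 0.13, and the D3 lungs -0.04, -0.23, -0.11, -0.38 and -0.25. The means were 0.52 ± 0.18, 0.07 ± 0.25, -0.02 ± 0.15 and -0.20 ± 0.13 (SD), and the fitted change was -0.67 (SE 0.12), or 1.60-fold. Keratin-associated proteins have similar copies in the genome, and whether the probe also binds their transcripts was not tested. Of 7 hair follicle markers, Krt31 and Tchh were above background on 18 of 18 lung arrays and Msx2 on 12, while the other 4 (Krt33a, Krt34, Krt71 and Krt25) were above it on 0.

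**Figure D1:**
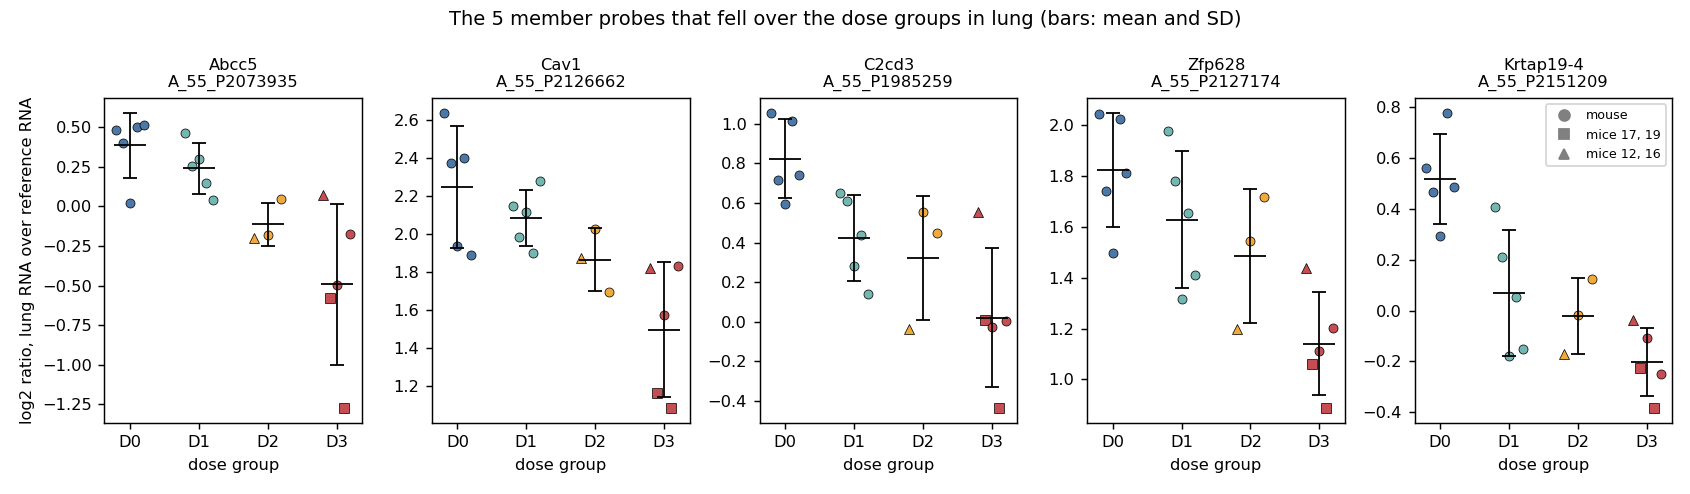
Log2 ratio of Cy5 over Cy3 in lung (y axis) for the falling probe of each of the 5 genes, by dose group (x axis, D0 to D3), 1 point per mouse. Bars are the mean and SD, squares mark mice 17 and 19, and triangles mark mice 12 and 16. Mouse 19 is the lowest D3 lung in all 5 panels, as in 33.6% of all probes tested in lung.

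Over all 31495 probes tested in lung, 48 (0.152%) were called lower over the doses and 5 higher at a limma adjusted p of at most 0.05 and a fitted change of at least 1.5-fold, and the rule that chose the 5 genes used that contrast. The 5 falling probes ranked 10 (Abcc5), 34 (C2cd3), 35 (Cav1), 63 (Krtap19-4) and 67 (Zfp628) from the most negative fitted change. The 53 calls over all probes came down to 12 without D0 mouse 4, 16 without D3 mouse 19, 19 without D3 mouse 17, 28 without D0 mouse 1 and 32 without D0 mouse 2. They rose to 87 without D0 mouse 3 and to 125 without D3 mouse 16. With each array centred on its median instead of normalised by LOWESS, 0 probes were called, whereas 5461 had an unadjusted p within 0.05 in the authors' ratios.

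The other probes of the same genes did not fall by the same amount. Of the Abcc5 probes, A_51_P116421, which shares the transcript NM_013790 with the falling probe and is printed in 10 spots per array, had a fitted change of -0.08 (SE 0.08) and stayed between 0.02 and 0.59 over the 18 lungs. A_52_P628117 (NM_176839) had a change of -0.05 (SE 0.11) and was above background on 12 of 18 lung arrays. A_55_P2073940 (NM_176839) had one of -0.35 (SE 0.11), from 0.98 ± 0.16 at D0 to 0.65 ± 0.29 at D3 (SD). Thus 1 of the 4 Abcc5 probes carried the large fall and another a smaller one in the same direction.

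For C2cd3, the probe A_52_P564951 had a fitted change of 0.05 (SE 0.10) and stayed between -0.25 and 0.25, and A_66_P129085 one of -0.13 (SE 0.08), with 15 of 18 lung arrays above background. For Zfp628, A_51_P334289 had a fitted change of 0.03 (SE 0.07), within -0.31 to 0.15. Its Cy5 signal lay between 402 and 709 units. All 3 C2cd3 probes are assigned to NM_001017985 and both Zfp628 probes to NM_170759, so the probes of these genes disagree within 1 annotated transcript. Cav1 and Krtap19-4 have 1 probe each, so that no second probe of them can be set beside the fall.

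**Figure D2:**
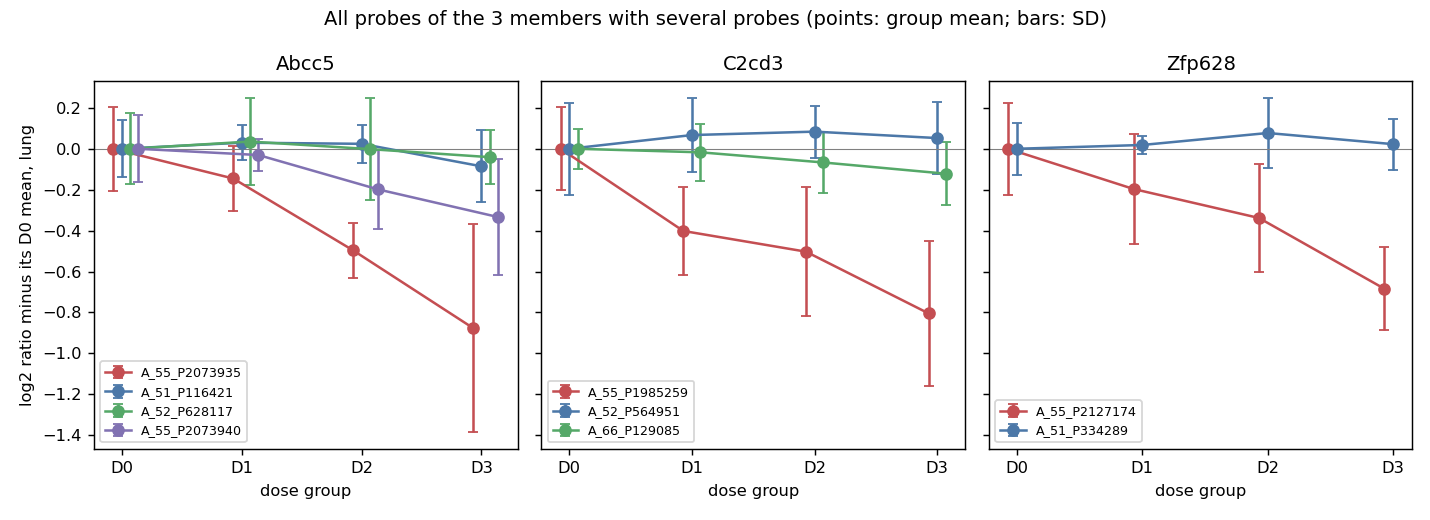
Mean log2 ratio in lung relative to the D0 mean (y axis) by dose group (x axis) for all probes of each gene, with SD over mice as bars. The falling Abcc5 probe reaches -0.88 at D3 while A_51_P116421 remains near 0.

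The 48 lower probes comprised 24 without a symbol and 1 for each of 24 named genes, the 5 members included. Of these 24 genes, 16 had more than 1 probe tested, and 3 of the 16 are the members Abcc5, C2cd3 and Zfp628. Of the other 13, 0 had all their probes called lower. The remaining 8 genes, Cav1 and Krtap19-4 among them, had a single tested probe. All 5 falling probes of the members carry identifiers of the A_55 series, which made up 48.5% of tested probes and 21 of the 48 lower ones.

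The fall lay in the tissue channel. Scaled to each array's percentile 75, the Cy5 signal at D3 differed from D0 by -0.80 for Abcc5, -0.63 for Cav1, -0.77 for C2cd3, -0.71 for Zfp628 and -0.77 for Krtap19-4, in log2 units. The Cy3 reference signal of the same spots differed by 0.02, 0.06, -0.02, -0.12 and -0.16 in that order. All D3 lungs lay below all D0 lungs in the scaled Cy5 signal for C2cd3, Zfp628 and Krtap19-4.

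**Figure D3:**
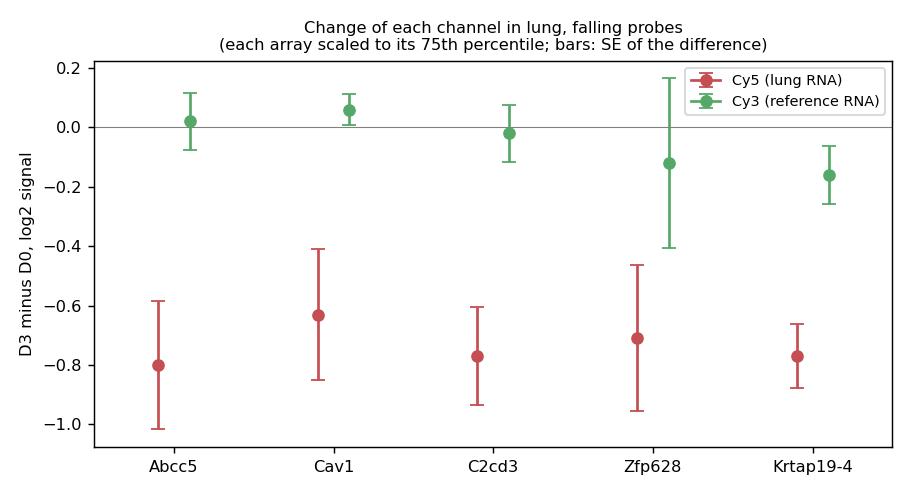
Difference between D3 and D0 lung means in log2 signal (y axis) for the Cy5 tissue channel and the Cy3 reference channel of the 5 falling probes (x axis), each array scaled to its percentile 75. Bars are the SE of the difference. The Cy5 differences lie between -0.80 and -0.63 and the Cy3 differences between -0.16 and 0.06.

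The 2 lung arrays outside the column of their dose were placed as their column would place them in most of these probes. Mouse 16, a D3 lung in column 3, was the highest of the D3 lungs in 4 of the 5 falling probes, against 18.7% of all tested probes. Mouse 12, a D2 lung in column 4, was the lowest of the D2 lungs in 4 of 5, against 33.7% of all tested probes. Both held in the same 4 genes, Abcc5, C2cd3, Zfp628 and Krtap19-4, whereas 7.21% of 31449 probes over the array had this order. Cav1 was the exception, with mouse 16 at 1.82 just below mouse 20 at 1.83 and mouse 12 at 1.87 between the other D2 lungs. This order was noticed on the values that chose the genes and is given as a description. Both arrays lay on slide 3, where mouse 12 was the only D2 lung, so for it column and slide cannot be told apart. Mouse 16 was ranked in a group that held mice 17 and 19. In column 4, D0 liver of mouse 1 and D0 forestomach of mouse 2 were lowest of D0 in forestomach Krtap19-4 alone. In column 3, D3 mouse 20 was highest of D3 for Abcc5 and Zfp628 in liver and Cav1 in forestomach.

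By array column, the means of Abcc5 were 0.39, 0.24, -0.02 and -0.55 in columns 1 to 4 (n = 5, 5, 3 and 5 in each case), and those of Krtap19-4 were 0.52, 0.07, 0.02 and -0.23. Zfp628 had 1.82, 1.63, 1.57 and 1.09, C2cd3 had 0.82, 0.42, 0.52 and -0.10, and Cav1 had 2.25, 2.08, 1.85 and 1.5. With the column as a covariate beside the dose step, 0 of the tested probes were called, and the fitted change with dose was -0.06 for Abcc5, -0.46 for Cav1, 0.48 for C2cd3, 0.01 for Zfp628 and -0.14 for Krtap19-4. That fit rests on the 2 exceptional arrays alone, because on the other 16 lung arrays dose and column cannot be told apart.

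**Figure D4:**
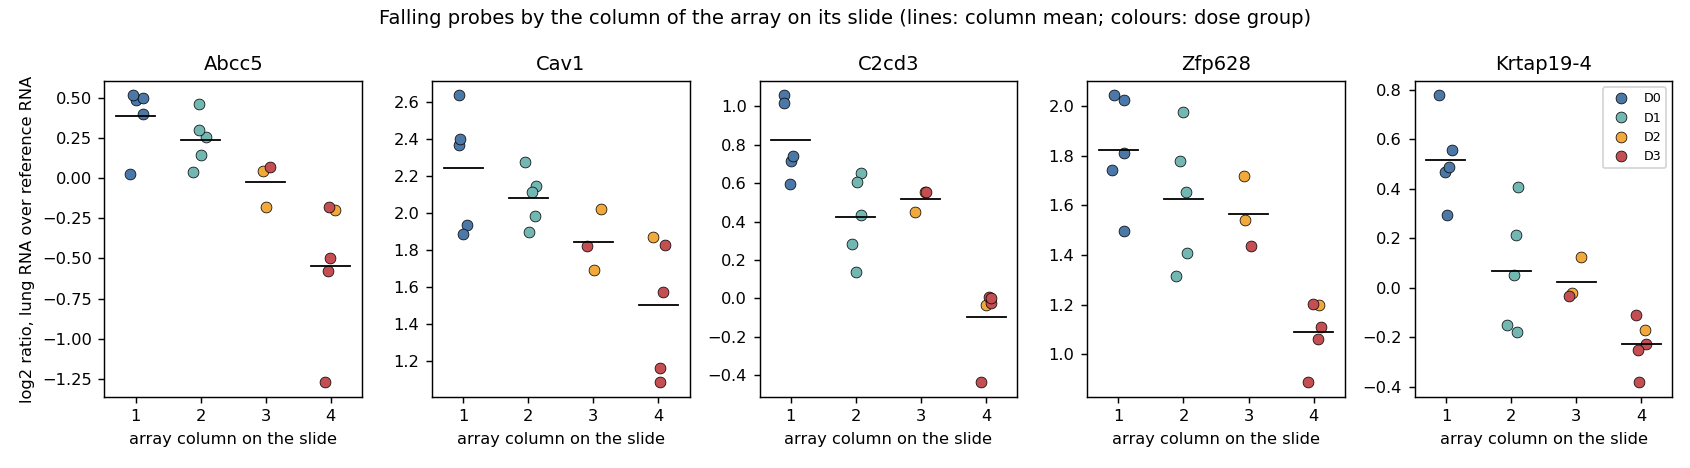
Log2 ratio in lung (y axis) of the 5 falling probes by array column (x axis, 1 to 4), 1 point per mouse with its dose group marked, and the line at the column mean. Mouse 16 sits in column 3 and mouse 12 in column 4, and in Abcc5 the column means go from 0.39 to -0.55.

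Within slides, D3 minus D0 was negative for each of the 5 probes on each of the 3 lung slides. For Abcc5 it was -1.02, -1.39 and -0.32 on slides 1, 2 and 3, and for Cav1 -1.34, -1.07 and -0.09. For C2cd3 it was -0.88, -1.25 and -0.39, for Zfp628 -0.83, -1.03 and -0.33, and for Krtap19-4 -0.74, -1.02 and -0.53. Slide 3, with 2 mice of either group, gave the smallest difference for all 5 probes. Its D3 lungs were those of mice 16 and 20, whereas mouse 17 lay on slide 1 and mouse 19 on slide 2. Mouse 18 also lay on slide 2, with skeletal muscle markers at 0 and keratinocyte markers at 0.03. By the values given above, mouse 18 lay below D0 mouse 4 of that slide in all 5 probes. The parts of slide and tissue content in these differences were not tested. Slides 1 and 2 held 2 D0 and 1 D3 and 1 D0 and 2 D3 lungs. With the slide as a block the fitted changes were -0.87, -0.74, -0.73, -0.64 and -0.65 for Abcc5, Cav1, C2cd3, Zfp628 and Krtap19-4, and 33 probes were called over the whole array.

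The D3 lungs with high skeletal muscle markers, mice 17 and 19, had lower means than the other D3 lungs, although single values overlapped for C2cd3 and Krtap19-4. C2cd3 read 0.01 in mouse 17, above mice 18 (-0.03) and 20 (0.00), and Krtap19-4 read -0.23 in mouse 17, above mouse 20 (-0.25). The mean of mice 17 and 19 against that of mice 16, 18 and 20 was -0.93 against -0.20 for Abcc5, 1.12 against 1.74 for Cav1 and -0.22 against 0.18 for C2cd3. For Zfp628 it was 0.97 against 1.25 and for Krtap19-4 -0.31 against -0.13. Without mice 17 and 19 the fitted changes were -0.63 for Abcc5, -0.52 for Cav1, -0.64 for C2cd3, -0.56 for Zfp628 and -0.64 for Krtap19-4. Across the array 0 probes were then called by limma (smallest adjusted p 0.0618, with 3652 probes within 0.05 before adjustment). Since the probes were chosen for a fall over these arrays, nothing is read from the sign of the changes that remain.

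Some other cell type lists in mice 17 and 19 also lay apart from the other D3 lungs, some lower and some higher. The alveolar type 1 list was at -0.43 and -0.42 in mice 17 and 19 relative to D0, against -0.06 to 0.21 in the other D3 lungs and -0.19 to 0.10 in D0. The endothelial list was at -0.40 and -0.36, against -0.12 to 0.08 in the other D3 lungs and -0.31 to 0.28 in D0. The smooth muscle list was at 1.31 and 0.92 against -0.51 to -0.23. Of its 5 genes Des, which striated muscle also expresses, had a fitted change of 1.14 over the doses, and Acta2, Myh11, Cnn1 and Tagln had changes from -0.20 to 0.13. Adipocyte markers were at 2.34 and 2.46 against -0.31 to 1.08, with Lep above background on 0 of the lung arrays. They lay between -0.71 and 0.83 in D0 and between -0.61 and 2.22 in D2, so high values were not particular to mice 17 and 19. The alveolar type 2 list was at -0.12 and -0.22, within the -0.26 to 0.17 of the other D3 lungs. The ciliated list was at 0.13 and -0.76 against -0.37 to -0.01, apart in opposite directions. The hair follicle list was at 0.09 and 0.01 against 0.01 to 0.07. None of the markers was called over the doses, and the part of these cells in the fall was not tested.

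The 5 falling probes were chosen for the same fall over the same 18 lung arrays, which fixes much of their likeness there, and their correlations are given as a description. Over these arrays, which share slides, columns and dose, Pearson's r of the 10 pairs lay between 0.68 and 0.94 with a median of 0.86. Within dose groups, as deviations from the group mean, r had a median of 0.64 (0.27 to 0.92), and within dose groups and slides one of 0.72 (0.31 to 0.91). In liver the median was 0.07 (-0.41 to 0.67, 19 arrays) within dose groups and -0.01 (-0.43 to 0.69) within dose groups and slides. In forestomach it was 0.23 (-0.36 to 0.89, 19 arrays) and 0.10 (-0.31 to 0.65) in the same order. Pairs of other probes were not examined, and no comparison between the tissues is made, since the choice was made in lung. In liver the Cav1 probe was above background on 0 arrays, so its pairs there compare background.

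Among 14758 genes with a probe tested in lung, those most like each member over the 18 arrays were drawn from varied families. For Cav1 they were Ssb (r = 0.95, and 0.87 within dose groups), Ppp4r2 (0.92 and 0.85) and Ehbp1 (0.92 and 0.83). For C2cd3 they were Prpf40b (0.95 and 0.92), Ino80b (0.94 and 0.94) and Zfp628 (0.94 and 0.89), and for Zfp628 they were Nbeal1 (0.95 and 0.88), Hcn2 (0.94 and 0.90) and C2cd3. For Krtap19-4 they were Dvl3 (0.98 and 0.95), Gfra4 (0.97 and 0.92) and Tpgs1 (0.97 and 0.87). The brightest Abcc5 probe, A_51_P116421, which did not fall, was most like Miga1 (0.92 and 0.95), Tnfsfm13 (0.92 and 0.96) and Neu1 (0.91 and 0.91). The falling Abcc5 probe, added after its values were seen, was most like Mideas (0.95 and 0.88), Smarca5-ps (0.95 and 0.90) and Frg1 (0.95 and 0.93). Since the falling probes were chosen for a fall over these arrays, their likeness to other falling genes is a description. Nbeal1, Dvl3, Mideas and Frg1 were themselves called lower over the doses (-0.61, -0.65, -0.62 and -0.70). The other genes named here, members aside, were not called.

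The sequence before the start of these genes was searched for the AhR core motif GCGTG on either strand, since chrysene is a ligand of that receptor. RefSeq sequences of the assembly GRCm38.p6 gave 6 windows of the 250 bases before a start, with both starts of Cav1 and at least 1 window for each of the 5 genes. Of these, 1 window, that of Zfp628, held the motif, and 28.2% of the 32851 windows of this length in the table did. A match is a run of letters and not a bound site. The Zfp628 window (chr7:4914967-4915216, plus strand) is shown with the motif in capitals, beside that of Abcc5 (chr16:20426395-20426644, minus strand), the gene with the largest fall, and the first of Cav1 (chr6:17306085-17306334, plus strand), neither of which holds it. Each is written 5′ to 3′ on the gene's strand.
Zfp628: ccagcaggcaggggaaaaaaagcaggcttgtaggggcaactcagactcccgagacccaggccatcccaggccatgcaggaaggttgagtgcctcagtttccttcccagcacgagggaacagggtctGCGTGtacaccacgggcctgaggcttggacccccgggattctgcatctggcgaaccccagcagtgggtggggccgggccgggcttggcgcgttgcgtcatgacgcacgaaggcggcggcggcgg
Abcc5: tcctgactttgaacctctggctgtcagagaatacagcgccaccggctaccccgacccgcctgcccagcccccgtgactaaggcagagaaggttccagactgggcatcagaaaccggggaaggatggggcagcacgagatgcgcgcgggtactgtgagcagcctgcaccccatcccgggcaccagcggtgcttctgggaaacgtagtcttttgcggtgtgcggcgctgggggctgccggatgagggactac
Cav1: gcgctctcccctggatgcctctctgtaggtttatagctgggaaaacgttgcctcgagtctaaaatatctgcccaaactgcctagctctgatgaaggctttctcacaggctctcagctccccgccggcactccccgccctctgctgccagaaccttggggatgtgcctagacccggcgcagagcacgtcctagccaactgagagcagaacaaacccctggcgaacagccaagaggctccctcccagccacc
The GC content of these windows was 66% for Zfp628, 64% for Abcc5 and 59.6% for Cav1, against a median of 52.4% over all windows. The second Cav1 start (chr6:17307390-17307639, plus strand) had 60.8%, C2cd3 (chr7:100371983-100372232, plus strand) 54.4% and Krtap19-4 (chr16:88885090-88885339, minus strand) 40.4%.

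In liver, none of the 8 member probes tested was called over the doses, as for the array as a whole (0 of 24766 probes, 0%, with 1343 or 5.42% with an unadjusted p within 0.05). The falling probe of Krtap19-4 came nearest, with means of 1.18 ± 0.16, 1.15 ± 0.17, 1.07 ± 0.12 and 1.00 ± 0.13 (SD, n = 5, 5, 4 and 5) and a fitted change of -0.18 (SE 0.08, limma unadjusted p = 0.0393, adjusted p = 0.914). It was the 1 member probe in 8 below that unadjusted limit. The falling probes of C2cd3 (-0.17, SE 0.15, adjusted p = 0.970) and Zfp628 (-0.14, SE 0.13, adjusted p = 0.970) had negative changes of about the size of their SE. That of Abcc5 had -0.03 (SE 0.09, adjusted p = 0.993) and was above background on 3 of 19 liver arrays.

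At D3 against D0 in liver, 0 of 24766 probes were called (0%, with 1188 or 4.8% with an unadjusted p within 0.05), and all 8 member probes had a limma adjusted p of 1.000. Krtap19-4 differed by -0.18 (SE 0.09) and Zfp628 by -0.14 (SE 0.14) in their falling probes. The bright Abcc5 probe A_51_P116421 differed by 0.03 (SE 0.10). Cav1 was not tested in liver, where 0 of 19 arrays were well above background.

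In forestomach, none of the 9 member probes tested was called over the doses, beside 11 of 27525 probes (0.04%, and 2527 or 9.18% with an unadjusted p within 0.05). Cav1 had means of 0.29 ± 0.48, 0.38 ± 0.31, -0.23 ± 0.40 and 0.33 ± 0.41 (SD, n = 5, 5, 4 and 5), and a fitted change of -0.12 (SE 0.26, limma adjusted p = 0.959). The D2 dip of -0.52 (SE 0.26) missed the limit (adjusted p = 0.686). Krtap19-4 had means of 1.27 ± 0.46, 1.05 ± 0.52, 0.93 ± 0.30 and 1.04 ± 0.49 and a fitted change of -0.24 (SE 0.25, adjusted p = 0.885). The falling probes of Abcc5 (-0.14, SE 0.19, adjusted p = 0.933), C2cd3 (-0.01, SE 0.10, adjusted p = 0.988) and Zfp628 (0.12, SE 0.20, adjusted p = 0.946) did not share a direction. Those of Abcc5 and C2cd3 were above background on 10 and 8 of 19 forestomach arrays.

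Abcc5 in its probe A_51_P116421 lay 0.44 (SE 0.17) above D0 at D2 in forestomach, with a limma adjusted p of 0.561. At D3 against D0, 2 of 27525 probes were called (0.00727%, and 2544 or 9.24% by unadjusted p). The member probes had adjusted p between 0.777 and 0.983. The Krtap19-4 difference was -0.23 (SE 0.28) and that of Cav1 0.04 (SE 0.24). Forestomach samples also varied in content, with the glandular stomach list from -3.27 to 2.66 around the D0 mean in D0 and from -3.44 to 2.86 in D3, and its part in these values was not tested. For 2 of the 5 falling probes, most forestomach values were lower on slide 3 than on the other slides. Slide 3 had the stronger signal, with 39 to 50.2% of probes above background, against 18.1 to 33.4% on the others. The falling Abcc5 probe was above background on 10 of 19 arrays, all 7 of slide 3 included. Its values on the other slides were thus mostly at background, and slide and signal strength cannot be told apart. The falling probe of Abcc5 lay between -0.90 and -0.46 on the 7 arrays of slide 3 and between -0.45 and 0.19 on the others, and Krtap19-4 between 0.36 and 0.82 against 0.75 to 1.84. The values of slide 3 overlapped the others for Cav1 (-0.78 to 0.98 against -0.33 to 0.48), C2cd3 (-0.32 to -0.01 against -0.24 to 0.34) and Zfp628 (0.56 to 1.49 against 0.47 to 1.67). A fall in lung beside no call in the other tissues does not show that the tissues differ, and the difference was not tested because the lung side was chosen.

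**Figure D5:**
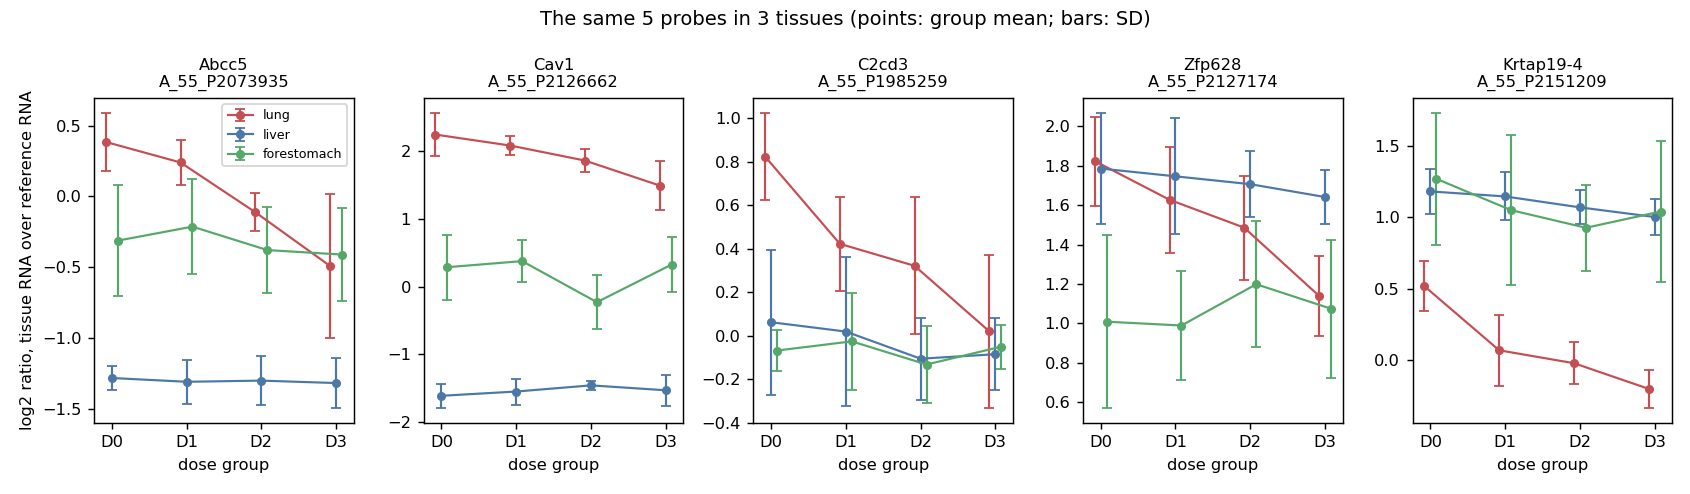
Mean log2 ratio with SD (y axis) of the 5 falling probes by dose group (x axis) in lung, liver and forestomach. In Krtap19-4 the lung means run from 0.52 to -0.20 and the liver means from 1.18 to 1.00. The Cav1 probe was not well above background in liver.

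Levels between tissues, as means over the 4 dose groups, differed for several member probes, as for much of the array. A limma adjusted p of at most 0.05 and a 1.5-fold difference were reached by 6 of 11 member probes between lung and liver (46.7% of all 32853 probes tested), by 3 of 11 between lung and forestomach (36.6% of 32698) and by 5 of 9 between forestomach and liver (41.5% of 29773). The counts with lung include the falling probes, and those with liver include probes at background there, so nothing is read from them. With D0 arrays alone 7, 7 and 5 member probes were called, beside 45.5, 36.8 and 40.1% of all probes tested. Each tissue had slides of its own, so tissue and slide cannot be told apart.

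Cav1 ranged from 1.08 to 2.64 in the 18 lungs (median 1.92), from -0.78 to 0.98 in the 19 forestomachs (median 0.23) and from -1.84 to -1.27 in the 19 livers (median -1.5). The lung level lay 1.73 above forestomach over all doses and 1.96 above it in D0 alone. In liver the Cav1 probe was above background on 0 of 19 arrays, so that only a bound can be given. On the scale of the Cy5 signal normalised between arrays, Cav1 was at least 12.9-fold higher in lung and at least 3.02-fold higher in forestomach, where 17 of 19 arrays were above background, than in liver. The bounds hold for that scale alone. The log2 ratios, with liver at background, differed by 3.46 (lung minus liver) and 1.73 (forestomach minus liver).

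Abcc5 was higher in lung than in liver in its bright probe A_51_P116421, which was above background on every array of both tissues and did not fall, by 2.34 (limma adjusted p = 6.77e-35). The probes A_55_P2073940 and A_55_P2073935 were above background on 5 and 3 of 19 liver arrays, so no size is given for their difference from liver. The probe A_52_P628117 was above background on 0 liver arrays, which bounds its lung signal at 1.21-fold or more above liver on the normalised Cy5 scale. Between lung and forestomach A_51_P116421 differed by 0.56, below 1.5-fold, but by 0.73 in D0 alone, 0.77 with loess and 2.72 with median centring, all above it, where centring moved the median of all probes to 1.06. The probe A_55_P2073940 differed by 0.83, past both limits with 10 of 19 forestomach arrays above background. By A_51_P116421, forestomach lay 1.78 above liver, so that lung and forestomach were both above liver.

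Krtap19-4 gave a lower ratio in lung than in liver (-1.01, and -0.66 in D0 alone) and than in forestomach (-0.98, and -0.75 in D0 alone), while forestomach and liver differed by -0.03 (limma adjusted p = 0.792). These signs depended on scaling, because with each array centred on its median the differences were 0.32 and 0.96. Under that scaling the median of all probes moved to 0.74 between lung and liver and to 1.06 between lung and forestomach, so that Krtap19-4 stayed below this median. The lung ratio ran from -0.38 to 0.78, the liver ratio from 0.81 to 1.42 and the forestomach ratio from 0.36 to 1.84.

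Zfp628 in its falling probe was lower in forestomach than in liver (-0.65) and above both limits there with the authors' ratios, but the difference was 0.19 with loess of the scanner signals and -1.34 with median centring. The falling probe differed by -0.20 between lung and liver, by 0.04 in D0 alone, by 0.40 with loess and by 0.63 with median centring. A_51_P334289 also differed by -0.20 between lung and liver, and by 0.06 and 1.26 under the same scalings. For C2cd3 none of the 3 probes passed both limits between any pair of tissues with all doses in the fit. Its falling probe in lung lay 0.42 above liver and 0.47 above forestomach over all doses, and 0.76 and 0.89 above them in D0 alone.

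Other genes of the same families were followed in lists that were drawn up with earlier results of these data known, leaving out the members. None of the caveola probes was called over the doses in lung (0 of 11 probes of 9 genes), and their median change was -0.02 beside -0.027 over all probes tested. Since 0.152% of all probes were called lower in lung, a count of 0 in this or any of the lists that follow is near the background and says nothing particular to them. Cav2, the partner of Cav1 in the caveolar coat of most cells, had a fitted change of -0.01 in either of its probes (limma adjusted p = 0.975 and 0.993). The cavins, which stabilise the coat, had -0.02 and -0.07 (Cavin1), -0.17 (Cavin2, adjusted p = 0.747) and -0.11 (Cavin3, adjusted p = 0.598). Ehd2, an ATPase at the neck of caveolae, had -0.07 and Pacsin2 -0.10, while Pacsin3 had 0.55 (adjusted p = 0.243).

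The muscle forms Cav3 and Cavin4 had the highest values of the list without being called. Cav3 had a fitted change of 1.29 (SE 0.47, limma adjusted p = 0.179) and ranged from 1.80 to 5.00 in D3 against 1.45 to 2.30 in D0. Cavin4 had one of 1.59 (SE 0.62, adjusted p = 0.21), with -2.52 to 1.49 in D3 against -2.73 to -2.08 in D0. Skeletal muscle markers were high in mice 17 and 19 of the same group, as given above.

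Of the other ABCC transporters, 0 of 9 probes of 8 genes were called in lung, and their median change was -0.04. The highest were Abcc1 (0.24, limma adjusted p = 0.222) and Abcc10 (0.21, adjusted p = 0.242). The lowest were Cftr, the chloride channel of airway epithelium (-0.42, adjusted p = 0.225), and Abcc3 (-0.21, adjusted p = 0.183). Of centriole and cilium assembly genes, 0 of 23 probes of 19 genes were called, with a median of -0.07. Poc1a (-0.56, adjusted p = 0.306) and Poc1b (-0.37, SE 0.08, adjusted p = 0.0341) were the lowest, and Poc1b missed the 1.5-fold limit. The highest were 2700049A03Rik, known as Talpid3 (0.16, adjusted p = 0.212), and Ofd1 (0.12, adjusted p = 0.508).

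Among keratin-associated genes, 3 probes of 2 Krtap19 genes passed the filter in lung and had a median change of -0.14. Krtap19-5 had -0.21 (limma adjusted p = 0.28) and -0.14 in its probes and Krtap19-2 had -0.02. Of the other Krtap genes, Krtap20-2 alone passed, with -0.37 (SE 0.08, adjusted p = 0.0274, below the fold limit), -0.21 (adjusted p = 0.221) and 0.05 (adjusted p = 0.842) in its 3 probes, so that its probes also disagreed. The AhR reporter genes had 0 of 6 probes called and a median of 0.12. Cyp1a1, the monooxygenase most used to report AhR activity, had a fitted change of -0.81 (SE 0.34, adjusted p = 0.233), and Nqo1 one of 0.59 (SE 0.20, adjusted p = 0.159). Tiparp, an AhR target that feeds back on the receptor, had -0.21 (adjusted p = 0.249) and -0.02 in its probes. Ahrr, the AhR repressor, had 0.40 (SE 0.08, adjusted p = 0.0347) and missed the fold limit. In liver and forestomach, 0 probes of any of these lists were called.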

How the data were processed

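RNA of lung, liver and forestomach was measured on 56 2-colour arrays (Cy5 tissue, Cy3 reference), grouped by the labels. Per the file headers, the deposited scanner files hold median intensity and 0 or 1 flags per spot from Feature Extraction 10.7.3.1. The authors' deposited table holds log2 ratios of Cy5 over Cy3, made per the methods by LOWESS without background subtraction. It was checked against ratios computed here (r 0.9774 to 0.9981), and its array medians lay between -0.046 and -0.02. Control spots (3671) were left out, and 317 values with more than 50% of their spots non-uniform, none of them of a member.

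The authors' log2 ratios were fitted in limma 3.58.1 (R 4.3.3) with lmFit and eBayes, two-sided, as a line over dose steps 0 to 3, as dose means, or as tissue means, over probes with Cy5 well above background on 3 or more arrays of the tissue. The methods name MAANOVA, which was replaced by limma with the same limits (adjusted p 0.05, fold 1.5). P values were adjusted over all probes tested by Benjamini-Hochberg. Probes were named through RefSeq accessions (26413 of 55681, 47.4%). Named are all probes of the 5 genes, the 3 genes most alike in lung, and the 2 highest and 2 lowest trends per related list with all caveola genes. Members, lists and tests were chosen with earlier results of these data known. A mouse gave 1 array per tissue. The pairing of tissues comes from this shared animal, and the correlation of deviations of the same mouse was 0.0417 to 0.27 for lung and liver, -0.0876 to 0.133 for lung and forestomach and -0.168 to 0.244 for forestomach and liver. The mice were separate animals. The number of arrays limits the precision. The fits were tested on simulated data first. Alternatives were loess and median centring of the scanner signals, normexp background, other filters, slide or array column in the fit, dose in mg per kg, D0 arrays alone and leaving out arrays.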

Additional observations from a re-analysis of the deposited data

Results flagged for a closer look

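Among 101 groups of 4 or 5 arrays examined for the member probes, 4 had an array far from the others by Dixon's test, where chance gives about 1 in 20. These groups include lung values that chose the genes, so nothing is read from the count. The falling Abcc5 probe A_55_P2073935 read 0.02 in lung D0 mouse 3, against 0.40 to 0.52 in the other D0 lungs, among values that chose the gene, so that this is a description. The same probe read -0.84 in forestomach D2 mouse 12, against -0.26 to -0.18 in the others. Krtap19-4 read 0.48 in forestomach of that mouse, against 1.02 to 1.12. Mouse 12 was the only D2 forestomach on slide 3, where all 7 forestomach arrays had -0.90 to -0.46 for that Abcc5 probe and 0.36 to 0.82 for Krtap19-4, so that both of its values lay within the range of their slide. The C2cd3 probe A_52_P564951 read 0.01 in forestomach D2 mouse 13, against -0.24 to -0.21.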

How the results depend on the processing

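The lung count of 53 calls was 26 with loess of the scanner signals, 24 with normexp background, 33 with the slide as a block and 0 with median centring, the array column as a covariate, the dose in mg per kg, or without mice 17 and 19, and 12 to 125 leaving out 1 array. The falling probes, chosen on these arrays, had a negative lung change in these fits but for C2cd3 at 0.48 and Zfp628 at 0.01 with the array column, which only 2 arrays separate from dose. The lung changes with median centring were -0.69 (Abcc5), -0.55 (Cav1), -0.57 (C2cd3), -0.45 (Zfp628) and -0.45 (Krtap19-4), beside a median of 0.07 over all probes. The liver count of 0 became 25 with the array column. The forestomach count of 11 was 4 with loess, 33 with a filter on every array, 64 with the slide block and 0 with median centring, the array column or the dose in mg per kg, and 0 to 81 leaving out 1 array (0 without D0 mouse 1, 81 without D1 mouse 10). The count of 2 at D3 in forestomach was 0 with loess and median centring, 13 with the slide block and 0 to 9 leaving out 1 array. The member probes called between lung and forestomach, 3, became 9 with median centring and 7 with D0 arrays alone, where 65.9 and 36.8% of all probes were called, against 36.6% in the authors' ratios. With the mouse as a replicate block they remained 6, 3 and 5 for lung against liver, lung against forestomach and forestomach against liver, and no call changed. In liver and forestomach, 0 member results were called under any alternative (smallest adjusted p 0.359).

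Changes near 0 turned sign as follows, and the cause was not tested. In liver, the trend of Abcc5 A_51_P116421 was 0.00 with loess, -0.06 with median centring, -0.08 with normexp and -0.04 with the slide block, and its D3 difference was -0.04 with centring and -0.03 with the block. Zfp628 A_51_P334289 in liver had trends of 0.01 with normexp and 0.13 with the array column, and D3 differences of -0.01 with loess and -0.03 with centring. Abcc5 A_55_P2073935 had 0.01 in liver with the column. In forestomach with the column, trends were 0.17 for Abcc5 A_55_P2073935, -0.26 for A_55_P2073940, 0.25 for Cav1 and 0.05 for Krtap19-4. With median centring they were 0.02 for Abcc5 A_55_P2073935, 0.04 for Cav1, 0.00 for C2cd3 A_55_P1985259 and 0.12 for Krtap19-4, and D3 differences were 0.06 for Abcc5 A_55_P2073935 and 0.14 for Krtap19-4. For C2cd3 A_55_P1985259 and Zfp628 A_55_P2127174 they were 0.02 and -0.05 with loess and 0.07 and -0.03 with normexp, and the Zfp628 D3 difference was -0.12 with loess. With the dose in mg per kg, Cav1 had 0.03 and C2cd3 0.00. Leaving out 1 array gave, for liver trends, -0.09 to 0.05 (Zfp628 A_51_P334289), -0.09 to 0.00 (Abcc5 A_55_P2073935) and -0.02 to 0.08 (Abcc5 A_51_P116421), and for liver D3 differences -0.09 to 0.08, -0.11 to 0.00 and -0.03 to 0.09. For forestomach trends it gave -0.05 to 0.01 (C2cd3 A_55_P1985259), 0.00 to 0.25 (Zfp628 A_55_P2127174), -0.29 to 0.03 (Cav1) and -0.03 to 0.11 (Zfp628 A_51_P334289). For D3 differences it gave -0.02 to 0.04, -0.08 to 0.23, -0.11 to 0.21 and -0.03 to 0.14 in that order and -0.20 to 0.03 for Abcc5 A_55_P2073935.

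Between tissues, Zfp628 A_51_P334289 was 0.06 (loess) and 1.26 (centring) higher in lung than in liver, and A_55_P2127174 was 0.40, 0.63 and, with D0 arrays alone, 0.04 higher. Krtap19-4 was 0.32 higher in lung than in liver and 0.96 higher than in forestomach with centring. Forestomach minus liver was 0.06 with loess and 0.29 with centring for C2cd3 A_55_P1985259, 0.19 with loess for Zfp628 A_55_P2127174, and for Krtap19-4 0.09 with D0 arrays alone and -0.07 to 0.03 leaving out 1 mouse. Dim signal limits the Cav1 liver values and most Abcc5 and C2cd3 values in liver and forestomach.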
